A study of Bos taurus with 90 samples.

Results

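Expression of ACMSD (ENSBTAG00000008039) was followed in 90 liver biopsy libraries of beef and dairy steers. ACMSD is 1 of 24616 genes in the count table, and its row was found through the gene names of the study's Additional file 2. The gene was picked because the study reported it as differing between feed efficiency groups of Holstein-Friesian steers offered the first concentrate diet. Levels in those libraries are therefore given as a description of that contrast, with no test, and the comparisons that were tested are those between RFI groups of the other breed and diet combinations, between diets and between breeds.

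ACMSD encodes aminocarboxymuconate semialdehyde decarboxylase, an enzyme of the kynurenine pathway, by which the liver breaks down tryptophan. Its substrate stands at a fork: left alone, it cyclises without an enzyme to quinolinate, from which NAD is built, and once decarboxylated by ACMSD it is carried towards glutaryl-CoA and acetyl-CoA for complete oxidation. The enzyme is known mainly from liver and kidney, and in rodents its hepatic level is known to respond to dietary protein, fatty acids and diabetes.

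Steers were Charolais (CH), a late-maturing beef breed, or Holstein-Friesian (HF), a dairy breed. They were offered 3 diets in a fixed order. The first was a high-concentrate phase (H1) of rolled barley, soya bean meal, molasses, minerals and vitamins with restricted grass silage. Next came a zero-grazed grass phase (ZG), in which cut grass was brought to the animals, and last a second high-concentrate phase (H2). Grass silage was fed between H1 and ZG, and grazed grass between ZG and H2, with no biopsies in these intervals. Within breed and phase, steers were ranked on residual feed intake (RFI), the feed eaten beyond that predicted from body weight and growth, and the libraries are those of the more efficient low RFI and the less efficient high RFI steers. Liver was taken from all steers when a phase ended. The libraries came from 9 low and 11 high RFI CH steers under H1, 3 low and 3 high under ZG and 9 low and 8 high under H2, and from 7 low and 9 high RFI HF steers under H1, 10 low and 8 high under ZG and 5 low and 8 high under H2. Every animal went through the diets in the same order, so diet cannot be told apart from age, body weight or date of biopsy. RFI status was assigned anew in each phase, and 14 steers gave libraries in more than 1 phase.

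Reads counted on genes ranged from 9097695 to 63621304 per library with a median of 18858293, and no 2 libraries held identical counts. ACMSD took between 322 and 3466 of those reads, so that counting error alone was between 1.70% and 5.57% of its value. Expression is given as CPM, the count scaled to the size of the library, after TMM scaling, a correction for differences in library composition. Of the 46 cell type markers drawn up for the biopsies, 0 could be matched to an identifier, and the liver origin was checked with the named plasma protein genes instead. FGG, the fibrinogen gamma chain made by hepatocytes, had a mean of 11814 to 16917 CPM in the 6 breed and diet combinations. In bulk tissue, fewer cells of a type cannot be told apart from less RNA per cell.

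Over all 90 libraries ACMSD had a mean of 71.5 ± 28.3 CPM (SD), a median of 68.8 CPM and a range of 26.3 to 153 CPM, a 5.83-fold span. It was detected in every steer and was neither switched off nor scarce in any group. The group means lay between 36.8 CPM in low RFI HF steers under H1 and 111 CPM in high RFI CH steers under H2. In order of mean they were HF H1 low (36.8), CH ZG high (53.6), HF ZG low (58.1), HF ZG high (65.6), CH H1 low (68.5), CH H2 low (72.3), HF H2 high (73.1), CH H1 high (74.6), HF H1 high (75.7), HF H2 low (82.7), CH ZG low (85.9) and CH H2 high (111). Of the 11 steps between neighbours in this order, 2 were larger than the smaller SD of the pair, those at both ends of the list. Among the 10 groups in between, no step between neighbours exceeded the smaller SD of the pair.

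**Figure D1:**
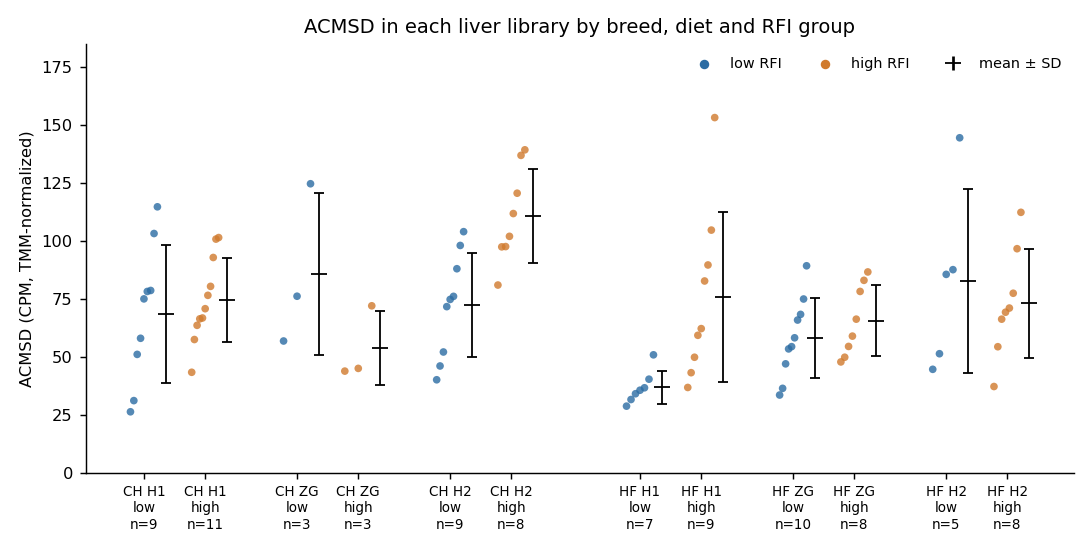
ACMSD in CPM (vertical axis, linear) for each of the 90 libraries, in 12 groups by breed, diet and RFI group, low RFI in blue and high RFI in orange, with the mean ± SD of each group in black. Low RFI HF steers under H1 lie between 28.7 and 50.9 CPM, and high RFI CH steers under H2 between 81.0 and 139 CPM.

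ACMSD varied widely between steers treated alike. Its biological coefficient of variation, the relative spread between steers of a group after counting error is removed, was 0.329 in the fit of all 12 groups. Among the 986 genes of similar abundance (within 0.5 of its average log2 CPM) the median was 0.191, and 87.5% of them had a lower value than ACMSD. Within groups of 5 or more steers, the highest value was between 1.72 and 4.37 times the lowest. The widest span was that of low RFI CH steers under H1, from 26.3 CPM in steer 950 to 115 CPM in steer 1831.

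**Figure D2:**
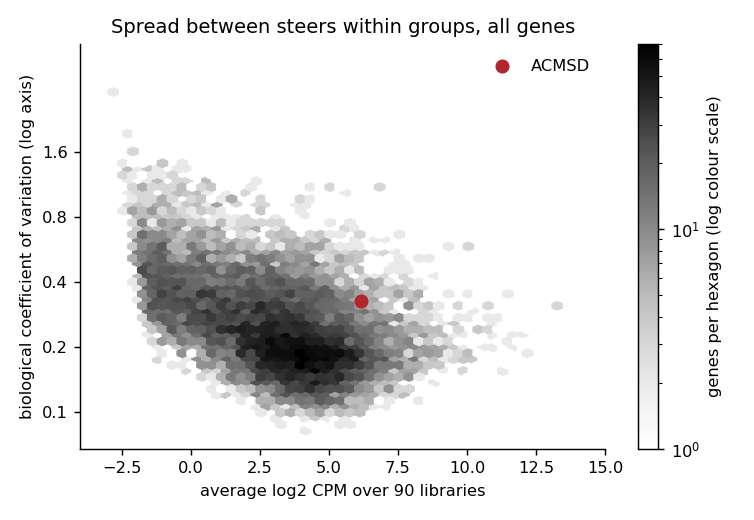
Biological coefficient of variation (vertical axis, log scale) against average log2 CPM over the 90 libraries for the 13945 genes tested, shaded by the number of genes, with ACMSD in red at 0.329. ACMSD lies above the bulk of genes of like abundance, whose median is 0.191.

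In HF steers under H1, the contrast for which the gene was chosen, ACMSD was lower in low RFI steers. The 7 low RFI steers ranged from 28.7 to 50.9 CPM with a median of 35.6 CPM, and the 9 high RFI steers from 36.8 to 153 CPM with a median of 62.2 CPM. The low RFI steers were tightly grouped (SD 7.21 CPM) and the high RFI steers were not (SD 36.7 CPM), and 5 of the 7 low RFI steers lay below every high RFI steer. The fitted log2 difference of low over high RFI was -1.04 (SE 0.25), the mean of the low group being 0.486 times that of the high group. At an adjusted p under 0.1, the threshold used throughout, 0 of 13025 genes were called in that contrast by the quasi-likelihood test of edgeR (0.0%), 863 genes had an unadjusted p under 0.05, and the DESeq2 Wald test called 26.

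Among the 5 RFI comparisons that had not been used to choose the gene, CH steers under H2 had the smallest p, with ACMSD again lower in low RFI steers. Low RFI steers ranged from 40.1 to 104 CPM with a median of 74.8 CPM, and high RFI steers from 81.0 to 139 CPM with a median of 107 CPM. Each of the 9 low RFI steers lay below the median of the high RFI steers and 6 lay below every one of them, while 4 of the 8 high RFI steers lay above every low RFI steer, so the groups overlapped between 81.0 and 104 CPM. The means were 72.3 ± 22.6 CPM (SD, n = 9) and 111 ± 20.4 CPM (SD, n = 8), 1.53-fold higher in high RFI steers, and a two-sided exact permutation test over the 24310 splits of the steers gave p = 0.00259, or 0.013 after Benjamini-Hochberg adjustment over the 5 RFI comparisons tested for ACMSD. Across all genes the log2 difference of low over high RFI was -0.61 (SE 0.18, 95% interval -0.99 to -0.23, unadjusted p = 0.00344 and adjusted p = 0.998 by edgeR's quasi-likelihood test), which ranked 19th of 12417 genes by p and was not called. edgeR called 0 genes (0.0%), 355 genes had an unadjusted p under 0.05, and DESeq2 called 4.

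The summed level of a leukocyte gene list also differed between the medians of these groups. The list held 10 named genes, was drawn up after the names had been seen, and comes from genes the study selected on these samples. Its summed level was 34.3 to 80.9 CPM in low RFI CH steers under H2 and 43.6 to 219 CPM in the high RFI steers, with medians of 57.6 and 155 CPM. The sum rests mostly on GIMAP4 and GIMAP8, members of a family of lymphocyte GTPases, whose means over CH steers under H2 were 41.0 and 17.6 CPM. Within groups over the 90 libraries, Pearson r with ACMSD lay between -0.24 (GIMAP4) and 0.31 (STAP1) for the 10 genes, a description only. Of the 9 members of the list tested in this contrast, edgeR called 0 as higher and 0 as lower, where 0.0% of all genes were called. Their median log2 difference of low over high RFI was -0.09, against 0.00 over all genes. GIMAP4 is a gene that the study picked from this same contrast. In the other combinations the medians of the sum also differed between RFI groups, in both directions. Low RFI steers had the higher median in CH under H1 (120 against 56.2 CPM) and in HF under H1 (250 against 144 CPM). They had the lower one in CH under ZG (148 against 189 CPM), HF under ZG (233 against 355 CPM) and HF under H2 (166 against 373 CPM). The part of leukocytes in the ACMSD difference of CH steers under H2 was not tested.

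In the remaining RFI comparisons ACMSD was not called and the ranges of the low and high RFI groups overlapped. CH steers under H1 ranged from 26.3 to 115 CPM in the low RFI group (median 75.0 CPM, n = 9) and from 43.3 to 101 CPM in the high RFI group (median 70.8 CPM, n = 11), and 2 low RFI steers lay below and 2 above every high RFI steer. The log2 difference was -0.11 (SE 0.23, 95% interval -0.59 to 0.36, edgeR adjusted p = 0.878), in a comparison in which 2 of 12920 genes were called (0.0155%). The exact permutation test on CPM gave p = 0.578.

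For CH steers under ZG, the 3 low RFI steers had 56.8, 76.1 and 125 CPM and the 3 high RFI steers 43.8, 45.0 and 72.0 CPM. Low RFI steers were higher on average, the opposite order to that under H2, and 2 of the 3 lay above every high RFI steer. The log2 difference was 0.70 (SE 0.32, 95% interval -0.05 to 1.44, edgeR adjusted p = 0.365), and the exact permutation p of 0.2 stands against a smallest possible value of 0.1 with 3 steers a group. edgeR called 0 of 13025 genes here (0.0%), 1755 had an unadjusted p under 0.05, and DESeq2 called 158. Leaving out each steer in turn gave differences from 0.32 to 0.95.

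In HF steers under ZG, low RFI steers ranged from 33.5 to 89.3 CPM with a median of 56.3 CPM (n = 10) and high RFI steers from 47.8 to 86.6 CPM with a median of 62.6 CPM (n = 8). The ranges overlapped almost entirely. The log2 difference was -0.18 (SE 0.18, 95% interval -0.57 to 0.20, edgeR adjusted p = 1.0) and the exact permutation p was 0.344. The calls were 0 of 12492 genes by edgeR (0.0%), with 261 genes at an unadjusted p under 0.05, and 2 by DESeq2.

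In HF steers under H2, the 5 low RFI steers had 44.6, 51.3, 85.6, 87.6 and 145 CPM, and the 8 high RFI steers ranged from 37.2 to 112 CPM with a median of 70.1 CPM. One low RFI steer, number 2071, stood above all others. The log2 difference was 0.17 (SE 0.29, 95% interval -0.44 to 0.77, edgeR adjusted p = 1.0), with an exact permutation p of 0.598, and it was -0.13 without steer 2071. edgeR called 0 of 12549 genes (0.0%), 435 had an unadjusted p under 0.05, and DESeq2 called 5.

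A single RFI effect fitted over the 5 combinations that had not been used to choose ACMSD was -0.14 on the log2 scale (SE 0.11, 95% interval -0.37 to 0.09, edgeR adjusted p = 1.0). Over the CH libraries alone it was -0.21 (SE 0.15, adjusted p = 0.65), and over the HF libraries of ZG and H2 it was -0.03 (SE 0.16, adjusted p = 0.999). The lower bounds of the 3 intervals were -0.37, -0.52 and -0.37. edgeR called 0 genes in each of these fits (0.0%), with 701, 1209 and 442 genes at an unadjusted p under 0.05, and DESeq2 called 0, 6 and 0.

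Whether the RFI effect itself changed with diet or breed was tested for 6 pairs of combinations that leave out HF steers under H1. The largest difference of effects was that of CH steers between ZG and H2, at 1.30 on the log2 scale (SE 0.45, 95% interval 0.39 to 2.20, unadjusted p = 0.00552, edgeR adjusted p = 0.812), where 2 of 13945 genes were called (0.0143%). It sets the higher level in low RFI steers under ZG against the lower level under H2. The other 5 differences lay between -0.80 and 0.86 with adjusted p between 0.318 and 1.0, and edgeR called 0 or 1 genes in each (0.0% or 0.00717%), with 420 to 2199 genes at an unadjusted p under 0.05, and DESeq2 0 to 2. Thus no change of the RFI effect between these combinations passed the threshold, although the RFI group with the higher mean was not the same in each of them.

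**Figure D3:**
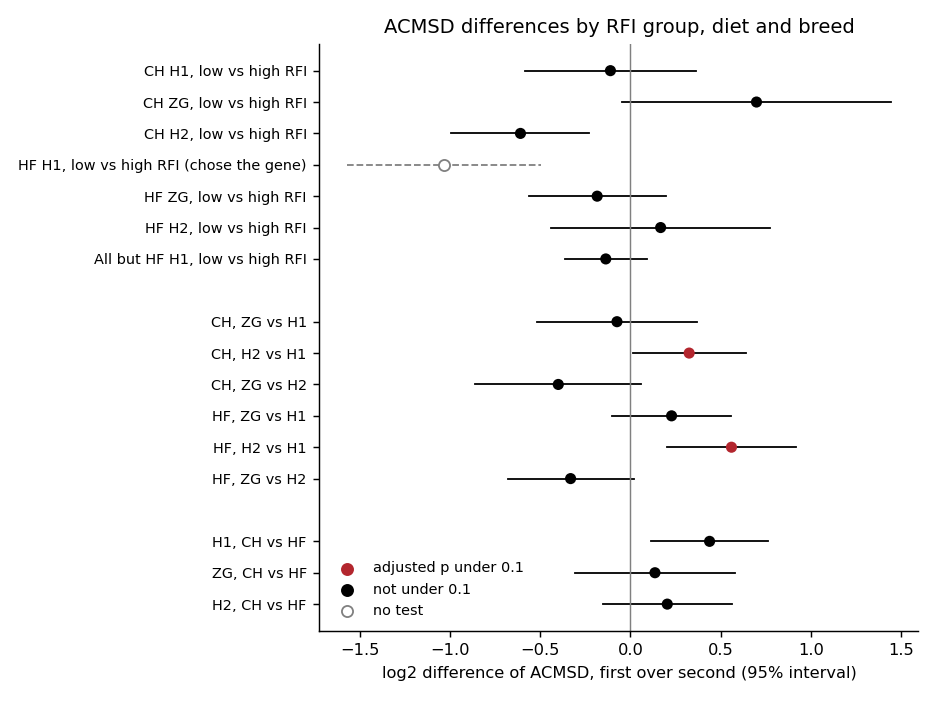
Log2 differences of ACMSD (horizontal axis) with 95% intervals for the RFI groups in each breed and diet, for pairs of diets in each breed and for the breeds in each diet; red points have an edgeR adjusted p under 0.1 and the open point is the contrast that chose the gene, with no test. The points for H2 over H1, at 0.33 in CH and 0.56 in HF, are the ones in red.

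ACMSD had a higher average under H2 than under H1 in both breeds. In HF the H1 libraries are those that chose the gene. Grass-fed steers lay near the H1 level in CH and between the concentrate phases in HF. In CH steers the level was 71.8 ± 23.7 CPM under H1 (SD, n = 20, range 26.3 to 115), 69.7 ± 30.1 CPM under ZG (SD, n = 6, range 43.8 to 125) and 90.4 ± 28.8 CPM under H2 (SD, n = 17, range 40.1 to 139). The corresponding HF levels were 58.7 ± 33.7 CPM (SD, n = 16, range 28.7 to 153), 61.5 ± 16.4 CPM (SD, n = 18, range 33.5 to 89.3) and 76.8 ± 29.4 CPM (SD, n = 13, range 37.2 to 145). The ranges of the diets overlapped in each breed.

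In the fit of 12 groups, which weights low and high RFI equally and treats libraries of 1 steer as independent, H2 over H1 was 0.33 on the log2 scale in CH (SE 0.16, 95% interval 0.01 to 0.64, edgeR adjusted p = 0.0668) and 0.56 in HF (SE 0.18, 95% interval 0.20 to 0.92, edgeR adjusted p = 0.00732), both called. Most genes differ between these phases, with 66.6% of the 13945 genes called in CH and 61.9% in HF, and 34.8% and 30.8% called as higher under H2. The size of the ACMSD difference was larger than that of 47.0% of genes in CH and of 72.9% in HF, so ACMSD lay near the middle of all genes in CH. The HF libraries under H1 also chose the gene, and the low values of their low RFI group lower the H1 average. The HF call is therefore not independent of that choice. Both calls were lost when each steer was used in its first phase only, at 0.30 in CH (adjusted p = 0.128) and 0.35 in HF (adjusted p = 0.212), and the CH call was lost when genes needed 10 counts in every library, at 0.26 (adjusted p = 0.149).

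**Figure D4:**
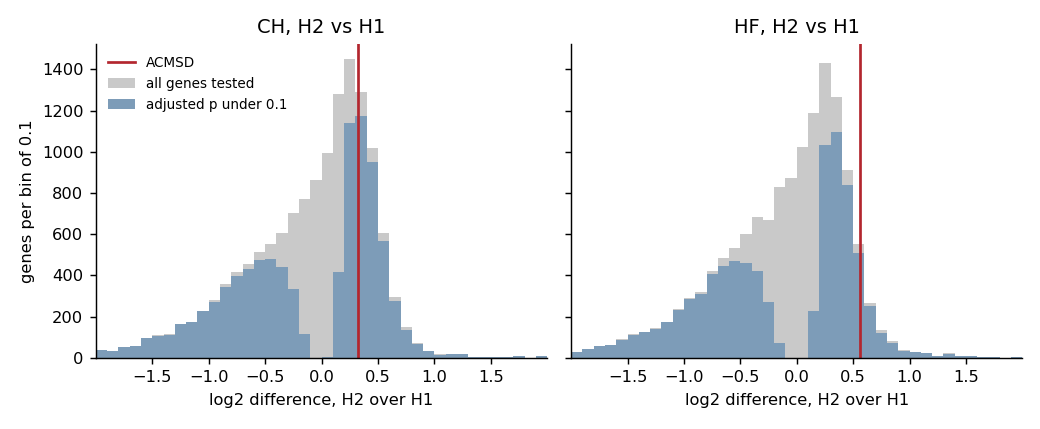
Number of genes (vertical axis) in bins of 0.1 of the log2 difference H2 over H1 (horizontal axis), CH on the left and HF on the right, all tested genes in grey and those with an adjusted p under 0.1 in blue. The red line marks ACMSD, at 0.33 in CH, within the main peak of called genes, and at 0.56 in HF, at its upper flank.

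Library composition also differed between the phases. The TMM scaling factors had a median of 1.11 under H1 (range 0.909 to 1.34) and of 0.944 under H2 (range 0.734 to 1.09), and with DESeq2 size factors in their place the ACMSD differences were 0.30 in CH and 0.54 in HF. Within groups, over the first library of each of 74 steers, no relation of ACMSD to the scaling factor was detectable (Pearson r = -0.12, permutation p = 0.303, 0.589 adjusted over the 2 relations). Spearman's rho was -0.11 (permutation p = 0.347, adjusted 0.695), and r was -0.14 without the 2 steers farthest from the median. For depth, r was -0.06 (permutation p = 0.589, adjusted 0.589) and rho -0.02 (permutation p = 0.84, adjusted 0.84), with r = 0.02 without the 2 farthest. The part of library composition in the diet difference was not tested.

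Comparisons with ZG were not called in either breed. ZG over H1 was -0.07 in CH (SE 0.22, edgeR adjusted p = 0.837) and 0.23 in HF (SE 0.17, adjusted p = 0.248), where 17.8% and 58.0% of genes were called. The HF value uses the H1 libraries that chose the gene and is not independent of that choice. ZG over H2 was -0.40 in CH (SE 0.23, adjusted p = 0.387) and -0.33 in HF (SE 0.18, adjusted p = 0.298), where 2.82% and 7.24% of genes were called. Both breeds thus had lower average values on grass than under the second concentrate phase, with 95% intervals of -0.86 to 0.06 and -0.68 to 0.02 that include 0.

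The diet differences were also taken within each RFI group. Among CH steers, H2 over H1 was 0.57 in the high RFI group (edgeR adjusted p = 0.0428) and 0.08 in the low RFI group (adjusted p = 0.79), and the test of the gap between them, -0.49 (SE 0.31), gave an adjusted p of 0.843. For HF steers the values, given without a test because they split the libraries that chose the gene, were 1.17 in the low RFI group and -0.05 in the high RFI group. ZG over H1 in HF was 0.66 in the low and -0.20 in the high RFI group, so its sign depended on the group. Low RFI HF steers under H1 are the group whose low values chose the gene, so nothing is read from these HF values.

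Animals biopsied in more than 1 phase allowed the same change to be followed within a steer. From H1 to H2, CH steer 1100 went from 78.6 to 139 CPM, CH steer 1320 from 66.4 to 102 CPM, CH steer 307 from 57.5 to 71.6 CPM and CH steer 364 from 101 to 121 CPM. HF steers 2101, 2220 and 5632 went from 49.8 to 66.2, from 34.1 to 51.3 and from 40.3 to 69.2 CPM, and HF steer 2071 from 153 to 145 CPM. ACMSD was thus higher under H2 in 7 of 8 steers, 4 of 4 CH and 3 of 4 HF. The mean log2 change was 0.47 ± 0.30 (SD, n = 8), with a two-sided exact sign-flip permutation p of 0.0156, where the smallest possible value was 0.00781. The H1 values of the 4 HF steers come from the libraries that chose the gene, and steers 2220 and 5632 were in the low RFI group there. This p is therefore not independent of that choice.

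Changes involving grass rested on fewer steers. The H1 values of the HF steers come from the libraries that chose the gene, so the result from H1 to ZG is not independent of that choice. From H1 to ZG, ACMSD was lower in CH steers 1816 (75.0 to 43.8 CPM) and 1831 (115 to 76.1 CPM) and HF steers 2065 (62.2 to 33.5 CPM) and 5632 (40.3 to 36.4 CPM), and higher in CH steer 307 (57.5 to 72.0 CPM) and HF steer 2069 (36.8 to 47.8 CPM). From ZG to H2, it was higher in HF steers 1639 (49.8 to 112 CPM), 5612 (58.2 to 87.6 CPM) and 5632 (36.4 to 69.2 CPM) and level in CH steer 307 (72.0 to 71.6 CPM). The mean log2 change was -0.28 ± 0.55 (SD, n = 6) from H1 to ZG, higher in 2 of 6 steers, with a two-sided exact sign-flip permutation p of 0.25 against a smallest possible value of 0.0312. From ZG to H2 it was 0.67 ± 0.51 (SD, n = 4), higher in 3 of 4 steers, with an exact permutation p of 0.25, and with 4 steers the test cannot go below 0.125.

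Steer 2071 had the highest ACMSD level of its breed in both of its libraries. It was classed as high RFI under H1 and as low RFI under H2, so that 1 animal lifted the high RFI group of one phase and the low RFI group of another. Over the 18 pairs of libraries from 1 steer, both libraries lay on the same side of their group mean in 11. RFI class changed in 6 of the 14 steers with repeated libraries.

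**Figure D5:**
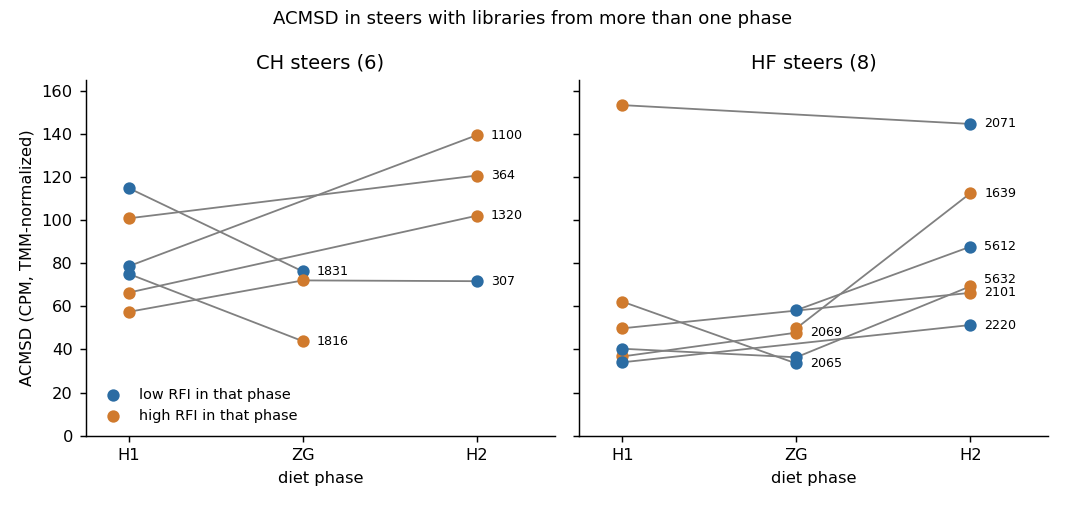
ACMSD in CPM (vertical axis) of the 6 CH and 8 HF steers with libraries from more than 1 phase, each steer a line labelled with its number, coloured by its RFI group in that phase. Of the 8 steers with both concentrate phases, 7 have a higher value under H2; steer 2071 is at 153 and 145 CPM.

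Between breeds, ACMSD had a higher average in CH than in HF steers in each diet, without reaching the threshold. CH over HF was 0.44 on the log2 scale under H1 (SE 0.16, 95% interval 0.12 to 0.76, edgeR adjusted p = 0.2, 2.12% of genes called). Under ZG it was 0.14 (SE 0.22, adjusted p = 0.937, 0.0645% called) and under H2 0.20 (SE 0.18, adjusted p = 0.929, 0.81% called). The means under H1 were 68.5 CPM in CH and 36.8 CPM in HF for low RFI steers, and 74.6 and 75.7 CPM for high RFI steers. The low RFI HF group is the one whose low values chose the gene, and whether the breed difference changed with RFI group was not tested. With sample quality weights in limma-voom the H1 difference was 0.46 and passed (adjusted p = 0.0744), and without CH steer 357 the ZG difference was -0.05.

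No difference between the diet effects of CH and HF passed the threshold. Those that involve H1 use the HF libraries that chose the gene, so they are not independent of that choice. CH minus HF was -0.30 for ZG over H1 (SE 0.28), -0.23 for H2 over H1 (SE 0.24) and -0.07 for ZG over H2 (SE 0.29), each with an edgeR adjusted p of 1.0. edgeR called 0 genes in all 3 tests (0.0%), with 418, 330 and 761 genes at an unadjusted p under 0.05, and DESeq2 called 1, 0 and 27.

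Of the 115 genes listed for the pathway, its neighbours and the cell types, 4 could be matched to an identifier, and 0 of the 12 enzymes from tryptophan to NAD were among them. DLD, the lipoamide dehydrogenase shared by the complexes that oxidise keto acids on the branch opened by ACMSD, was higher under H2 than under H1 by 0.36 in CH (SE 0.09, edgeR adjusted p = 0.000828) and 0.46 in HF (SE 0.11, adjusted p = 0.000393), and also higher under ZG than under H1, by 0.36 in CH (SE 0.13, adjusted p = 0.0622) and 0.61 in HF (SE 0.10, adjusted p = 9.93e-07). GOT2, a mitochondrial aspartate aminotransferase that can also make kynurenic acid, was higher under H2 by 0.37 in CH (adjusted p = 5.7e-06) and 0.30 in HF (adjusted p = 0.00138). ONECUT1, a liver transcription factor, was lower under H2 and fell by 0.76 in CH (adjusted p = 1.44e-06) and fell by 0.29 in HF (adjusted p = 0.0923). GLDC, of the glycine cleavage system, was not called in any of the 6 diet contrasts (adjusted p from 0.162 to 0.888). None of the 4 was called between RFI groups in the 5 combinations tested, where edgeR called at most 0.0155% of all genes. The study reported DLD as lower in low RFI HF steers under H1.

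The names included 10 genes of amino acid breakdown, a list put together after the names had been seen from genes the study selected on these samples. Under H2 against H1, 4 rose and 4 fell in CH, where 66.6% of all genes were called, and 3 rose and 4 fell in HF, where 61.9% were. AGXT, which converts glyoxylate to glycine, fell by 1.11 in CH (SE 0.22, edgeR adjusted p = 2.07e-05) and 0.98 in HF (SE 0.25, adjusted p = 0.00109). SARDH, which oxidises sarcosine, fell by 1.01 in CH (adjusted p = 0.0014) and was also called as lower in HF (adjusted p = 0.00266), and ALDH4A1, of proline breakdown, fell by 0.96 in CH (adjusted p = 0.00102) and 0.83 in HF (adjusted p = 0.0146). DMGDH, which oxidises dimethylglycine, rose by 0.26 in CH (SE 0.11, adjusted p = 0.0363) and 0.45 in HF (SE 0.13, adjusted p = 0.00241). The medians of the list were 0.09 in CH and 0.06 in HF against 0.03 and 0.00 over all genes. ACMSD, with DLD, GOT2 and DMGDH, was on the side that rose.

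The genes whose levels varied most like those of ACMSD were found from the correlation of deviations of log2 CPM from the 12 group means over the 90 libraries. These points share library depth and scaling, several come from 1 steer, and no test was made. Over the 13944 other genes the median r was 0.00, with 10 genes over 0.5 and 3 under -0.5. An unnamed gene, ENSBTAG00000016275, was the most alike at r = 0.64, with 0.82 over the CH and 0.47 over the HF libraries, and 0.68 without HF steers under H1. Next came another unnamed gene, ENSBTAG00000037489, at 0.59, followed by GSTM1 (ENSBTAG00000037673), a glutathione transferase, at 0.58. A second copy of GSTM1, ENSBTAG00000017765, stood 24th at 0.44, and how alike the sequences of the copies are was not examined. For both GSTM1 copies and both unnamed genes the likeness was weak over the 24 ZG libraries (r from 0.08 to 0.25) and stronger over the 36 H1 and 30 H2 libraries (r from 0.52 to 0.80).

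At the other end, ENSBTAG00000021518 (r = -0.58) and ENSBTAG00000030674 (r = -0.53), both unnamed, varied most in the opposite direction. Among the 327 named genes, singled out after their values were seen, MOB3B (-0.43), FETUB (-0.39) and EIF4B (-0.37) had the lowest r. FETUB encodes the plasma protein fetuin B, and EIF4B is a translation initiation factor. After the GSTM1 copies, HSD17B6 (0.37), a steroid dehydrogenase, had the highest. Over the 24 ZG libraries r was 0.15 for MOB3B, -0.28 for FETUB, -0.08 for EIF4B and 0.26 for HSD17B6. The study listed GSTM1, MOB3B and HSD17B6 for HF steers under H1, the contrast that chose ACMSD. By the order of the 12 group means, which include the groups that chose ACMSD, the most alike were an unnamed gene (ENSBTAG00000010085, Spearman rho 0.93) and STRIP2 and FSTL1, a secreted glycoprotein (both rho 0.92).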

How the data were processed

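For liver RNA of the steers, the authors obtained single-end reads of 50 bp, trimmed them and used STAR with the UMD3.1 assembly to count them per Ensembl gene. The study's methods and the submitters' processing notes give different versions of STAR. The authors deposited raw counts with no normalization, so that alignment and counting could not be varied, and whether counting used strand is not given in the sources used here. Names came from Additional file 2, which gave 328 identifiers. The given RefSeq table is of another build, ARS-UCD2.0, and was used for neighbours only: ACMSD lies between CCNT2 and TMEM163 there, with 0 genes overlapping it. One gene named in Additional file 2 is not reported here. ACMSD, the gene lists and the tests were chosen with earlier results of these data known.

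The RFI comparisons were fitted separately per breed and diet, and diets and breeds in 1 fit of 12 groups, with edgeR 4.0.16 in R 4.3.3 (TMM, filterByExpr, robust quasi-likelihood test, Benjamini-Hochberg over all genes tested). A gene was called when its adjusted p was under 0.1, and "higher", "rose" and "fell" refer to log2 differences of the first over the second group named. The SE is the absolute log2 difference over the square root of F, and intervals are at 95%. Exact permutation tests of RFI groups were two-sided on CPM, and exact sign-flip tests were two-sided on log2 changes within steers. Permutation p-values of the depth relations used 100000 draws. Deviations were taken on log2(CPM + 0.5). The fits were tested on simulated data in which 200 genes were changed by 1 on the log2 scale. In the RFI comparisons of CH, edgeR recovered 93% of them under H1, 5.5% under ZG and 72% under H2. For HF it recovered 70% under ZG, 66.5% under H2 and 87.5% for H2 over H1. DESeq2 recovered 45% in CH under ZG, with 56 false calls, where edgeR made 3. Python 3.11.15 with scipy 1.17.1 made the tables.

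The alternatives were DESeq2 1.42.0, DESeq2 size factors, no low count filter, at least 10 counts in every library, an adjusted p under 0.05, limma-voom (limma 3.58.1) with quality weights or with the steer as replicate block, all 12 groups in 1 fit for RFI, the 2 diets alone, the first phase of each steer, each steer of a group of 5 or fewer left out, and the libraries numbered 1797 left out. Low or high RFI only, within-steer changes, differences of RFI effects and unweighted limma-voom were chosen after seeing the data. Pairing comes from the steer numbers in the labels. Deviations from group means over all genes correlated with a median of 0.242 over the 18 pairs of libraries from 1 steer. The range was -0.489 to 0.523, and 14 pairs were over 0.1. Pairs of different steers were not compared. The number 1797 occurs in both breeds and was not paired. Named genes are ACMSD, matched members of the lists, and the genes most like ACMSD by correlation.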

Additional observations from a re-analysis of the deposited data

How the results depend on the processing

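Of the alternatives to the ACMSD results, 268 were counted as the same, 11 changed sign, 5 lost the call, 1 gained it and 1 moved. Same means that direction and side of the threshold were kept. Where no test was made, it means a log2 value within 0.475 of the main one, which is the mean SD of log2 CPM within groups. No sign change concerned a called difference except H2 over H1 in HF for high RFI libraries only (-0.0502, against 1.17 for low RFI only). For ZG over H1 in CH the value was 0.10 with limma-voom quality weights, 0.33 in low RFI libraries only and -0.26 to 0.0388 when 1 steer was left out (0.0388 without steer 788). ZG over H1 in HF was -0.20 in high RFI libraries only, against 0.66 in low RFI only. ZG over H2 in CH was 0.25 in low RFI libraries only. H2 over H1 in CH, at 0.33, was not called at an adjusted p under 0.05, at 0.26 with at least 10 counts in every library, at 0.0785 in low RFI libraries only and at 0.30 in the first phase of each steer. H2 over H1 in HF was not called at 0.35 in the first phase of each steer and was 0.41 to 0.64 with 1 steer left out. CH over HF under H1 was called at 0.46 with quality weights, and CH over HF under ZG was -0.0491 to 0.25 with 1 steer left out (-0.0491 without steer 357). The breed difference of ZG over H2 was 0.00649 with quality weights and -0.25 to 0.0456 with 1 steer left out (0.0456 without steer 788 and 0.0107 without 1657). The RFI effect of HF under H2 was -0.13 to 0.33 with 1 steer left out (-0.13 without steer 2071). The causes were not tested, beyond the smaller number of libraries where steers were dropped. With the steer as replicate block, H2 over H1 was 0.53 in HF (limma-voom adjusted p = 0.0101) and 0.37 in CH (adjusted p = 0.0361), and the common RFI effect without HF under H1 was -0.19; the block changed no call of ACMSD, and the within-steer correlation was 0.124 in the fit of 12 groups. It moved the number of genes called for ZG over H1 in CH from 2476 to 3990 and for CH over HF under ZG from 9 to 2. No paired analysis was possible within 1 breed and diet because no steer there has 2 libraries. Over all alternatives the number of genes called ranged from 1 to 160 for RFI in CH under H1 (2 in the text), 0 to 158 under ZG (0) and 0 to 5 under H2 (0), and from 0 to 26 for HF under H1 (0), 0 to 2 under ZG (0) and 0 to 5 under H2 (0). For the common RFI effects it was 0 to 11 without HF under H1 and 0 to 26 in CH, against 0. The ranges for diets were 15 to 5274 (2476), 5433 to 9892 (9284) and 8 to 4500 (393) for ZG over H1, H2 over H1 and ZG over H2 in CH, and 4355 to 8483 (8089) and 30 to 3146 (1010) for ZG over H1 and ZG over H2 in HF. For breeds they were 161 to 574 (295), 0 to 78 (9) and 40 to 272 (113) under H1, ZG and H2.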

Other observations

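Acute phase genes, proteins that the liver releases in inflammation, were another group whose levels could be set beside those of ACMSD. The list held 8 named genes, drawn up after the names had been seen from genes the study selected on these samples, and is given as a description. Within groups, r with ACMSD was 0.33 for FGG, 0.31 for HP, which encodes haptoglobin, 0.30 for LBP and 0.29 for FGA, the fibrinogen alpha chain, against a median of 0.00 over all genes, while FETUB stood at -0.39. It was 0.27 for SERPINA3, 0.11 for C5, of the complement system, and 0.04 for M-SAA3.2. In CH under H2 against H1, edgeR called 3 of the 8 as higher and 1 as lower, and in HF 0 as higher and 0 as lower, against 34.8% and 30.8% of all genes called as higher. Between RFI groups 0 of them were called in the 5 combinations tested, where edgeR called at most 0.0155% of all genes. All 8 were tested in CH under H1 and 7 in each other combination. The study, with DESeq2, reported HP as differing in CH under H1 and ZG, and C5, FGG, LBP and SERPINA3 under ZG.

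Of the other lists of named genes, 7 genes of lipid synthesis and storage had r with ACMSD from -0.32 (GPD1, which makes glycerol phosphate) to 0.09 (APOC3), and 7 genes of the clock and fasting response from -0.26 (PPP1R3C, a regulator of glycogen storage) to 0.25 (SIK1, a kinase). The 10 leukocyte genes lay between -0.24 (GIMAP4) and 0.31 (STAP1).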
